A study of Felis catus with 12 samples.

Results

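Left ventricular RNA was compared between cats that died with congestive heart failure (HF) and cats with arterial thromboembolism (ATE). The comparison used 9 of the 12 libraries of the series, 6 with congestive HF and 3 with ATE, each from 1 cat. The groups followed the reasons for euthanasia or death that the study gives for each cat. The other 3 libraries entered no test. They were 1 from a cat that died of a non-cardiac cause and 2 labelled 29 and 22. The study's cohort table gives ATE for cat 22 and a non-cardiac cause for cat 29, but neither number is in its list of sequenced cats, so these libraries were assigned to no group. All were from client-owned cats and were sampled post mortem at the left ventricular free wall.

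The cats with congestive HF were cats 11, 30, 31, 15, 35 and 37. They were 3 to 18 years old where an age was given (5 of 6), with 3 neutered males and 2 neutered females, and comprised 1 Birman, 2 Maine Coons and 3 domestic shorthairs (DSH). The cats with ATE were cat 23, a neutered female of 13 years, and cats 10 and 38, neutered males of 8 and 5 years, all DSH. The grouping was not a clean division, since cat 10 had heart failure as well as ATE, cat 23 had cardiomegaly besides ATE, cat 15 was found dead, and cat 11 also had a mechanical ileus. No formal diagnosis of hypertrophic cardiomyopathy was used to select the cats. Each of the 3 flow cells held at least 1 library of either group. Flow cell A held cats 11, 30 and 31 with HF and cat 23 with ATE, flow cell B held cats 15 and 35 with HF and cat 10 with ATE, and flow cell C held cat 37 with HF and cat 38 with ATE.

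In congestive HF, raised filling pressure of a stiff or failing left ventricle drives fluid into the lungs or the pleural space. In feline ATE, a thrombus that usually forms in an enlarged, slowly emptying left atrium is carried into the aorta and lodges most often where it divides towards the hind limbs. Both are end points of cardiomyopathy in cats, and the ventricular wall in either case consists of cardiomyocytes among fibroblasts, endothelial cells, mural cells and macrophages.

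Direct RNA sequencing, in which RNA molecules pass through a nanopore without conversion to cDNA, gave 852825 to 2263110 reads on genes in the HF libraries and 789257 to 1631706 in the ATE libraries. The groups differed by less than their spread in reads (exact permutation p = 0.619), in genes with a read (exact permutation p = 0.762) and in the share of the 10 most abundant genes (exact permutation p = 0.905), with a Benjamini-Hochberg adjusted p of 0.905 for all 3 measures (two-sided exact permutation tests). Values below are the deposited ones, reads divided by 1 size factor per library, so that 1 read was worth 0.483 to 1.43 in the HF libraries and 0.735 to 1.34 in the ATE libraries. A value of 0 therefore still allowed up to 3 reads, which is a value of 1.45 to 4.29 depending on the library, and these limits cover counting error only. The labelled tissue was reflected in its markers. All 20 cardiomyocyte markers were tested, and together they took 16.4% to 22.7% of the reads in HF and 17.7% to 23.2% in ATE.

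The 2 groups did not separate at the level of single genes after correction. Testing was limited to the 8588 genes that reached 10 reads in 3 or more libraries, and 0 of them (0%) passed an adjusted p under 0.05 with limma, where the smallest adjusted p was 0.956. Before adjustment, 374 genes (4.35%) had a p under 0.05. Of these, 195 (2.27%) were higher in ATE and 179 (2.08%) lower. edgeR's test on the recovered reads also called 0 genes (393 at an unadjusted p under 0.05). DESeq2 on the same reads called 1 gene (0.0116%), and so did edgeR with flow cell as a covariate (0.0116%). In both it was KERA, which is described next. With flow cell as a covariate, limma had 451 genes at an unadjusted p under 0.05 (5.25%), and again 0 that passed. The differences below are therefore values of these 9 cats, in log2 of the value plus 1 and as ATE minus HF, and "higher" or "lower" refers to group means.

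**Figure D1:**
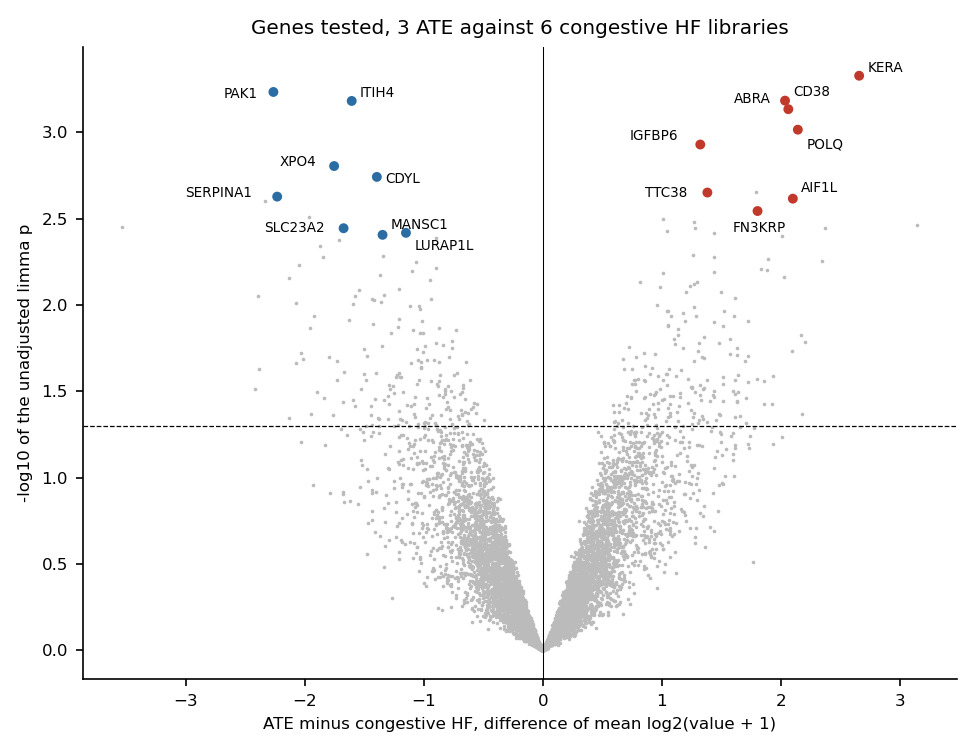
Difference between ATE and congestive HF for each of the 8588 genes tested (horizontal axis, difference of mean log2(value + 1)) against the -log10 of the unadjusted limma p (vertical axis); the dashed line marks 0.05 on the scale of p. The 16 named genes, 8 higher in ATE (red) and 8 lower (blue), lie at the top of the plot, and none passed after adjustment.

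Without any overlap between the groups, 86 genes (1.0%) were higher in all 3 ATE libraries than in every HF library, and 102 (1.19%) were lower. The 16 genes described in the next paragraphs were taken from these by their p, so that for each the exact permutation p was 0.0238, the smallest that 6 against 3 libraries can give, and their adjusted limma p was 0.956. Since the groups do not overlap, each necessarily had the same direction within all 3 flow cells. Among all tested genes, 1153 (13.4%) were higher in ATE on each flow cell and 1091 (12.7%) lower. The read filter also bore on which genes could be found. Of the 8 higher genes, KERA and POLQ had 0 HF libraries with 10 or more reads, FN3KRP 1 and CD38 2, so these 4 would not have been tested without the ATE libraries. PAK1, ITIH4, XPO4, SERPINA1, SLC23A2 and MANSC1 had 0 ATE libraries with 10 or more reads and passed through HF alone.

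KERA encodes keratocan, a small leucine-rich proteoglycan best known from the corneal stroma. In the HF libraries its value was between 2.36 and 7.18, with a median of 4.32, from only 2 to 9 reads. In the ATE libraries it was 98.1 in cat 23, 14.7 in cat 10 and 20.6 in cat 38, from 73, 13 and 28 reads. Every ATE library was thus above every HF library, with cat 23 far above the others. The difference was 2.66 ± 0.58 (SE), and within flow cells A, B and C it was 3.95, 2.15 and 2.03. The adjusted p was 0.00358 with DESeq2, 0.0424 with edgeR and flow cell as a covariate, 0.553 with edgeR without it and 0.956 with limma, so the call depended on the test. It also rests on a gene that met the read filter through the ATE libraries alone.

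The other 7 genes that stood higher in ATE included enzymes and actin-associated proteins. CD38, an enzyme that consumes NAD and makes cyclic ADP-ribose, had 2.86 to 13.5 in HF (median 6.74) and 40.3, 27.1 and 21.3 in cats 23, 10 and 38, a difference of 2.04 ± 0.46. ABRA, a striated-muscle protein that binds actin, had 61 or more reads in every library. Its value ranged from 48.1 to 346 in HF (median 119.9) and was 708, 398 and 548 in ATE, a difference of 2.07 ± 0.47. Within the flow cells the ABRA difference was uneven, at 2.35 and 2.52 on flow cells A and B and 0.66 on flow cell C, where cat 37 had the highest HF value. AIF1L, an actin-bundling protein, ranged from 2.72 to 19.1 in HF (median 9.51) against 45.7, 22.5 and 56.6 in ATE, a difference of 2.1 ± 0.56. Its 3 highest HF values were the 3 of flow cell A.

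IGFBP6, a secreted protein that binds insulin-like growth factor 2 in preference to factor 1, ranged from 18.8 to 44.7 in HF (median 35.7) and was 109, 66.5 and 76.5 in ATE. The difference of 1.33 ± 0.32 had one of the narrower errors among these genes. POLQ, the DNA polymerase theta of end-joining repair, had 1.6 to 10.9 in HF (median 5.7) and 30.9, 20.3 and 25.7 in ATE, from 2 to 8 reads in HF, and it too met the read filter through ATE alone. FN3KRP, a kinase that removes sugar adducts from proteins, had 2.39 to 14.3 against 16.1, 25.9 and 36. The gap between the groups was small here, with 14.3 in cat 37 with HF and 16.1 in cat 23 with ATE. TTC38 had 5.58 to 12.6 in HF and a close set of 22.8, 22.5 and 27.9 in ATE, a difference of 1.38 ± 0.37.

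Among the 8 genes that stood lower in ATE were 2 plasma protein genes. ITIH4, a heavy chain of the inter-alpha-trypsin inhibitor family, ranged from 13.5 to 37.2 in HF (median 26.6) and was 8.06, 9.02 and 5.88 in cats 23, 10 and 38, a difference of -1.61 ± 0.36. SERPINA1, alpha-1 antitrypsin, ranged from 7.15 to 36.8 in HF (median 22.5) and was 5.37, 6.76 and 0.735 in ATE, a difference of -2.23 ± 0.597. The SERPINA1 value of cat 38 was 1 read. The HF library of cat 37 and the ATE libraries of cats 23 and 10 lay close together for this gene.

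PAK1, a kinase that acts downstream of Rac and Cdc42, had the largest difference of the 8, -2.26 ± 0.51. Its value was 7.58 in cat 30 and 25.8 to 57 in the other 5 HF libraries, against 6.72, 3.38 and 4.41 in ATE, which is 3 to 6 reads. XPO4, a nuclear export receptor, ranged from 8.58 to 36.2 in HF and was 5.37, 7.89 and 3.68 in ATE. CDYL, a chromodomain protein of transcriptional repressor complexes, ranged from 19.4 to 48.6 in HF and was 10.7, 6.76 and 11.8 in ATE, so its groups were well apart, by -1.39 ± 0.36.

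SLC23A2, a sodium-dependent transporter of vitamin C, was between 8.42 and 32.9 in HF and at 4.03, 5.64 and 2.21 in ATE. LURAP1L was 20.5 to 43.9 in HF and 9.4, 13.5 and 16.9 in ATE, a difference of -1.15 ± 0.33. MANSC1 was 11.4 to 21.8 in HF and 5.37, 9.02 and 4.41 in ATE, a difference of -1.35 ± 0.39.

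**Figure D2:**
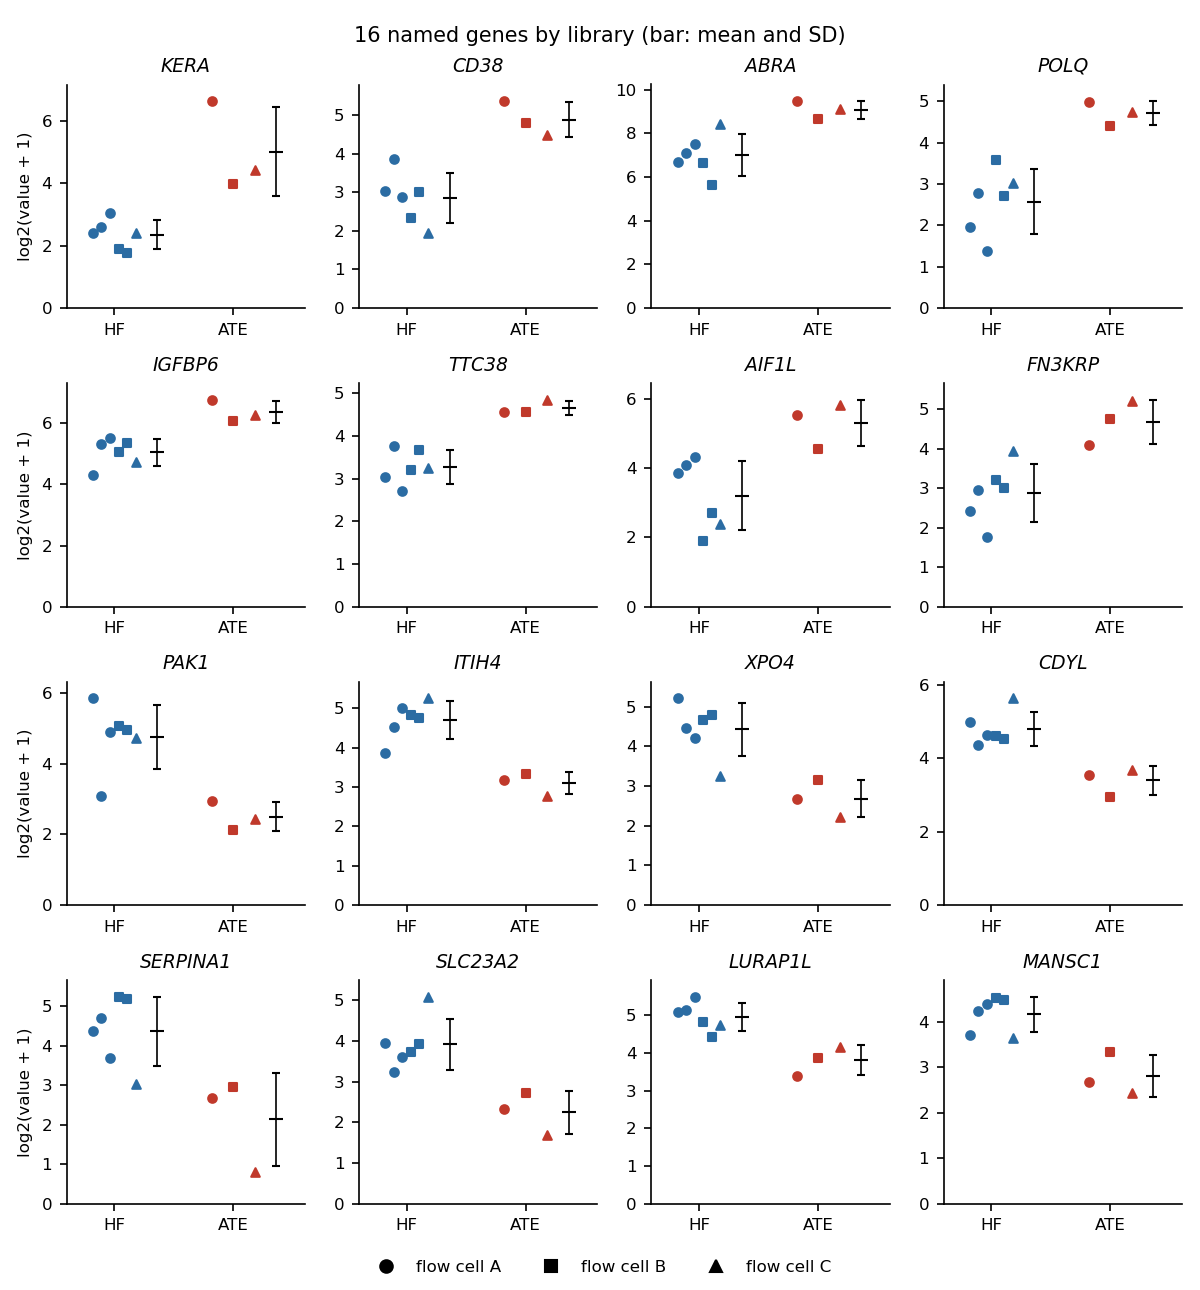
Log2(value + 1) of the 16 named genes in each library (vertical axes), by group (HF, 6 libraries, blue; ATE, 3 libraries, red) and flow cell (marker shape); black bars are the mean and SD. The groups do not overlap in any panel, which is how the genes were chosen, and the spread among the HF libraries is widest for SERPINA1, PAK1, ABRA and AIF1L.

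APOA1 showed how much 1 library could decide. APOA1, the main protein of high-density lipoprotein and otherwise a liver and gut transcript, was at 18.8 to 52.0 in 5 of the HF libraries but at 411 in cat 37. In ATE it was 422, 292 and 252, so that cat 37 lay between the values of cats 23 and 10. The difference was 2.37 ± 0.67 with limma (adjusted p = 0.956, exact permutation p = 0.0714), and 3.52, 2.57 and -0.705 on flow cells A, B and C. Without cat 37 it was 2.93, with an adjusted limma p of 0.0258, and APOA1 was then the only gene that passed. Of the other 4 plasma and acute-phase genes tested, SERPINA1 was lower without overlap, as above, and the list as a whole had a median of -0.12, with 2 of 5 members higher.

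Gene groups were described by the same 9 libraries, with the median difference over their tested members set against 0.003 for all 8588 genes, of which 4320 (50.3%) had a higher mean in ATE. The lists were assembled with earlier results of these data known, and their members are not independent of one another. Some lists also share genes, for example LUM, ACTC1, TNNI3, FABP3, C1QB and C1QC, so lists that lean the same way are partly the same values. Because the samples were bulk tissue, fewer cells of a type and less RNA per cell of that type cannot be told apart.

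**Figure D3:**
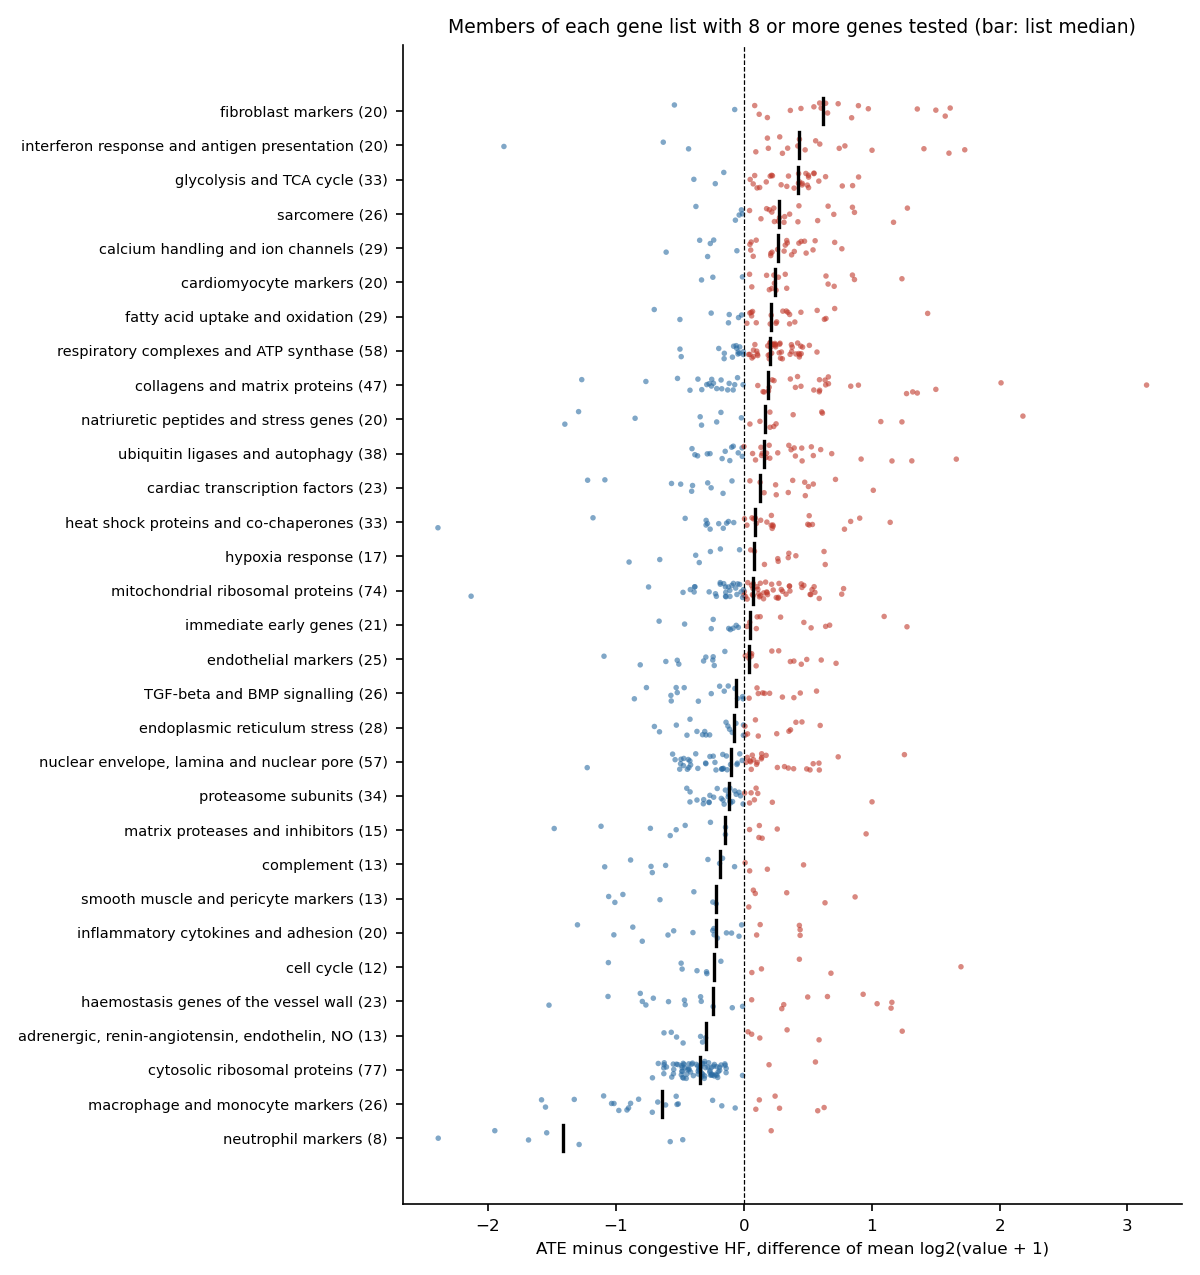
Difference between ATE and congestive HF for each tested member (points; red higher, blue lower in ATE) of the gene lists with 8 or more genes tested, with the list median as a black bar and the number of genes in parentheses; the horizontal axis is the difference of mean log2(value + 1) and the dashed line is the median of all genes tested. Cytosolic ribosomal proteins form a narrow band below 0, fibroblast markers lie mostly above it, and neutrophil markers lie lowest.

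Fibroblast markers stood higher in ATE. Of 20 tested markers, 18 had a higher mean, the median difference was 0.62, and 11 were higher on all 3 flow cells (13.4% of all genes) against 1 lower (12.7% of all genes). At an unadjusted p under 0.05, where 2.27% of all genes were higher and 2.08% lower, there were 3 higher, PI16, PCOLCE2 and LUM, and 0 lower. PI16, a marker of adventitial fibroblasts, was the one without overlap, against 1.0% of all genes that were higher without overlap. It was at 5.45 to 37.2 in HF (median 16) and 45.7, 40.6 and 42.7 in cats 23, 10 and 38. The difference was 1.58 ± 0.57 (exact permutation p = 0.0238, the smallest possible). PCOLCE2, an enhancer of procollagen processing, had 6.81 to 39.4 in HF and 94, 28.2 and 121 in ATE. Its value in cat 10 lay within the HF range, and so did the value of LUM, lumican, which was 38.1 to 231 in HF and 654, 121 and 332 in ATE.

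The 2 fibroblast markers that were not higher were COL1A1 and, outside the rule for named genes, TCF21. TCF21, a transcription factor of cardiac fibroblasts, differed by -0.54 and COL1A1, the alpha 1 chain of type I collagen, by -0.07 ± 0.91. The level of the list in a library, taken as the mean log2(value + 1) of its members minus that of all tested genes, was 1.64 in cat 23, 0.21 in cat 10 and 1.01 in cat 38. In HF it ranged from -0.69 in cat 15 to 0.78 in cat 30. Cat 10 was thus inside the HF range and cats 23 and 38 were above it. The list median was 0.24 without cat 23 and 1.07 without cat 10, and it was above 0 in all 20 alternatives run on lists.

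Collagens and other matrix proteins were divided when flow cell was left out of the fit. Of 47 tested genes, 27 were higher in ATE with a median of 0.19, which is closer to all genes than the fibroblast markers were, and without cat 23 the median was -0.16. No member was lower on all 3 flow cells (12.7% of all genes) and 15 were higher on all 3 (13.4% of all genes). At an unadjusted p under 0.05, 4 were higher (2.27% of all genes) and 0 lower (2.08%). COL14A1, a collagen that associates with the surface of fibrils, had the largest difference of the list. It was listed at 0 in cat 15 and reached 21.9 in cat 30 among the HF libraries, with a median of 5.59, and it was 94, 18 and 82.4 in cats 23, 10 and 38. Only cat 30 with HF lay above the lowest ATE value. The difference was 3.15 ± 0.89 (adjusted limma p = 0.956, exact permutation p = 0.0476), and 3.38, 3.38 and 2.2 within the flow cells.

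The small leucine-rich proteoglycans in the matrix list, a family that coats collagen fibrils and to which KERA also belongs, were picked out after their values were seen. All 6 that were tested had a higher mean in ATE, with OGN at 1.5, LUM at 1.36, ASPN at 1.27, DCN at 0.897, PRELP at 0.84 and BGN at 0.55, and all but BGN were higher on each flow cell. DCN, decorin, was 184 to 638 in HF (median 378), against 1308, 388 and 666 in cats 23, 10 and 38. Cat 10 fell among the HF libraries in all 6 genes. CCN5, a secreted matricellular protein, also stood higher, at 4.79 to 43.6 in HF and 61.8, 34.9 and 50.7 in ATE (exact permutation p = 0.0476).

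COL1A1, COL3A1 and POSTN had wide spreads. COL1A1 was 2.72 to 103 in HF and 69.8, 12.4 and 16.9 in ATE (exact permutation p = 0.929). COL3A1, the type III collagen chain, differed by 0.36 ± 0.75 (exact permutation p = 0.738). POSTN, periostin, a matricellular protein of activated fibroblasts, was listed at 0 in cat 15, reached 83.7 in cat 31 and was 94, 3.38 and 17.6 in ATE, a difference of 0.45 ± 1.34. With flow cell as a covariate the differences were 0.296 ± 0.44 for COL1A1, 0.53 ± 0.36 for COL3A1 and 0.53 ± 0.68 for POSTN, and COL3A1 was higher on all 3 flow cells. Cats 11, 30, 31 and 23, all of flow cell A, had the 4 highest levels of the matrix list, 1.42, 1.17, 1.12 and 1.84. With flow cell as a covariate the list median was 0.296, and 36 of 47 members were higher. Within flow cells A, B and C the list median was 0.33, 0.40 and 0.12.

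Genes of the transforming growth factor beta (TGF-beta) and bone morphogenetic protein pathway, which controls matrix production, had 10 of 26 higher and a median of -0.06. The TGF-beta receptors TGFBR2 and TGFBR1 had lower means in ATE. TGFBR2, the type II receptor, was 70.1 to 155 in HF and 72.5, 73.3 and 58.1 in ATE, a difference of -0.76 ± 0.28 (exact permutation p = 0.0714). TGFBR1, the type I receptor, differed by -0.85 ± 0.41 (exact permutation p = 0.0714), and both were lower on all 3 flow cells. Of the matrix proteases and inhibitors, 6 of 15 were higher. TIMP1, an inhibitor of matrix metalloproteinases, was 123 to 806 in HF and 211, 108 and 121 in ATE, so that cats 10 and 38 lay below every HF library and cat 23 within their range.

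Cytosolic ribosomal protein genes stood lower in ATE by a small and even amount. Of 77 tested, 75 had a lower mean, the median was -0.34, and 51 were lower on all 3 flow cells (12.7% of all genes) against 1 higher (13.4% of all genes). The 2 members at an unadjusted p under 0.05, RPL37A and RPS23, were a share near the 2.08% of all genes that were lower at that level, so single members did not stand out. RPS23, of the small subunit, was 252 to 429 in HF (median 340.1) and 236, 313 and 143 in cats 23, 10 and 38, a difference of -0.62 ± 0.29 (exact permutation p = 0.0952), and the groups overlapped. Many of these genes have near-identical processed copies in mammalian genomes, and how reads were split among them is uncertain.

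As a share of all reads, the ribosomal protein genes took 4.77% to 7.42% in HF (median 6.25%) and 4.78%, 5.72% and 4.22% in cats 23, 10 and 38. The list level was 3.29, 3.7 and 3.03 in these cats. Cat 30 with HF, at 3.27, lay below cats 23 and 10, and the other 5 HF libraries were between 3.65 and 3.93. Within the flow cells the list median was -0.39, -0.13 and -0.52, so the difference was smallest on flow cell B. Without cat 38 it was -0.22 over all libraries. Mitochondrial ribosomal proteins, which are also encoded in the nucleus, did not share this direction, with 45 of 74 higher and a median of 0.07. Proteasome subunits leaned the same way as the cytosolic ribosome by less, with 26 of 34 lower and a median of -0.11.

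**Figure D4:**
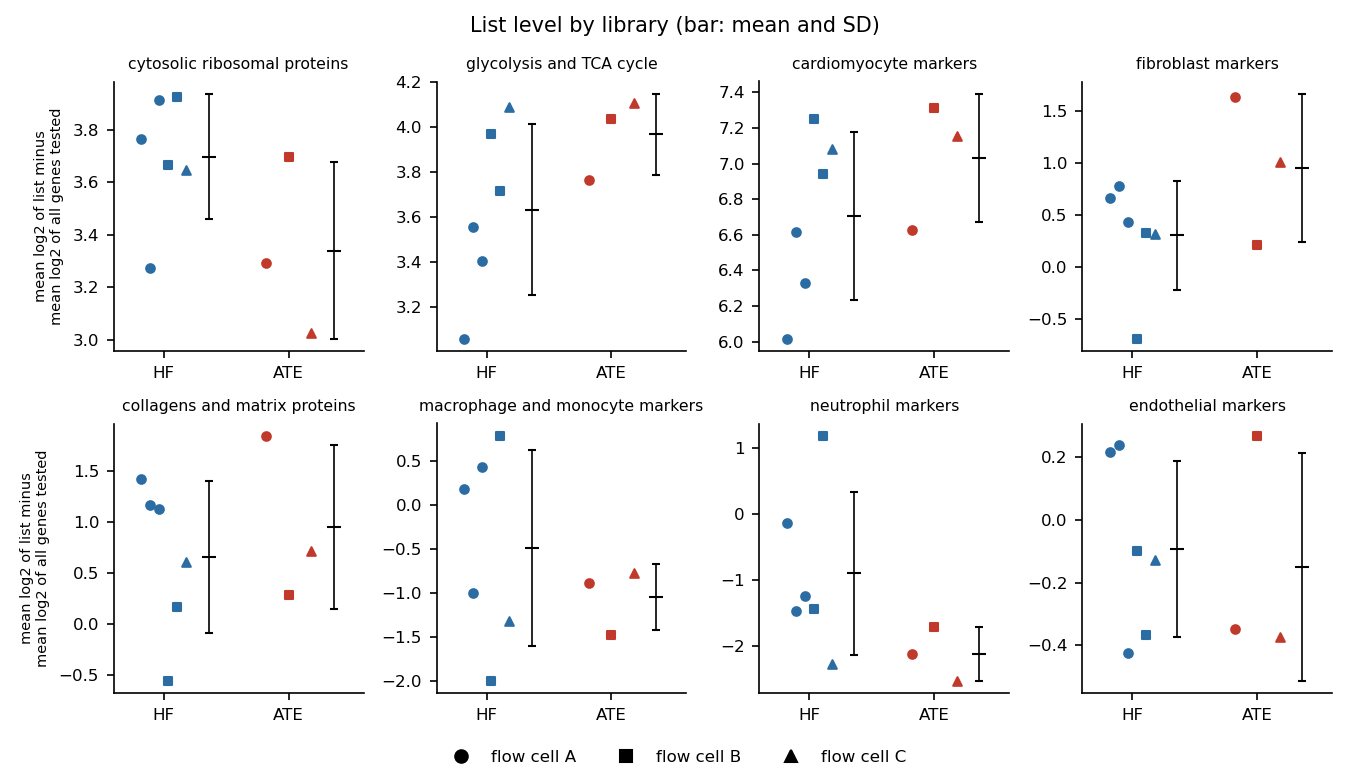
Level of 8 gene lists in each library, as the mean log2(value + 1) of the tested members minus that of all genes tested (vertical axes), for HF (6 libraries, blue) and ATE (3 libraries, red), with flow cell as the marker shape and the mean and SD as black bars. The groups overlap in every list; cat 15 is the lowest HF point for fibroblast, matrix and macrophage lists, and cat 35 the highest for macrophage and neutrophil lists.

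Genes of energy metabolism stood higher in ATE. Of 33 tested genes of glycolysis and the tricarboxylic acid (TCA) cycle, 30 had a higher mean, with a median of 0.43 and 13 higher on all 3 flow cells (13.4% of all genes) against 1 lower (12.7%). DLST, a component of the 2-oxoglutarate dehydrogenase complex, was 81.4 to 176 in HF and 148, 181 and 242 in cats 23, 10 and 38, a difference of 0.77 ± 0.31 (exact permutation p = 0.0952). TPI1, triosephosphate isomerase, was 511 to 1225 in HF and 1038, 1143 and 1347 in ATE, a difference of 0.64 ± 0.28 (exact permutation p = 0.0714). In both genes cat 37 was the highest HF library, above cat 23 for DLST and above cats 23 and 10 for TPI1. The members with a lower mean, outside the rule for named genes, were LDHA, SLC2A1 and GAPDH, at -0.39, -0.22 and -0.16.

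Other lists of the cardiomyocyte leaned the same way. Respiratory complex and ATP synthase subunits had 43 of 58 higher (median 0.21), fatty acid uptake and oxidation genes 22 of 29 (median 0.21), sarcomere genes 21 of 26 (median 0.27) and calcium handling genes and ion channels 23 of 29 (median 0.26). Higher on all 3 flow cells (13.4% of all genes) were 14, 1, 6 and 3 members of these lists, in that order. Lower on all 3 (12.7% of all genes) were 4, 1, 1 and 1. The cardiomyocyte markers themselves had 17 of 20 higher and a median of 0.25. At an unadjusted p under 0.05 there were 0 members, against 2.27% of all genes higher and 2.08% lower. Their level moved with that of the metabolic genes across libraries. It was 6.01, 6.61, 6.33 and 6.63 in cats 11, 30, 31 and 23 of flow cell A and 6.94 to 7.31 on flow cells B and C. Flow cell A held 3 of the 6 HF libraries and 1 of the 3 ATE libraries. With flow cell as a covariate the medians were 0.11 for cardiomyocyte markers, 0.27 for glycolysis and the TCA cycle, 0.100 for respiratory subunits, 0.21 for the sarcomere, 0.15 for calcium handling and channels and 0.09 for fatty acid genes, of which 16 of 29 were then higher. The fatty acid median was -0.35 within flow cell B and -0.0065 with edgeR and flow cell, and within flow cell C the medians of respiratory and sarcomere genes were -0.08 and -0.04. The part of the cardiomyocyte share in the metabolic difference was not tested.

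Single genes of these lists with the smallest p included regulators. PPARGC1A, the coactivator that drives mitochondrial biogenesis, was 7.72 to 71.5 in HF (median 19.9) and 32.2, 56.4 and 99.3 in ATE, a difference of 1.44 ± 0.599 (exact permutation p = 0.119). SYNPO2L, a Z-disc protein that binds actin, was 22.7 to 217 in HF and 185, 141 and 171 in ATE, a difference of 1.28 ± 0.53 (exact permutation p = 0.0952). Both groups overlapped in these genes. GJA1, connexin 43 of the gap junctions, was the calcium and channel gene with the smallest p and the only one of the 3 named there with a lower mean, -0.61 ± 0.34 (exact permutation p = 0.167).

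**Figure D5:**
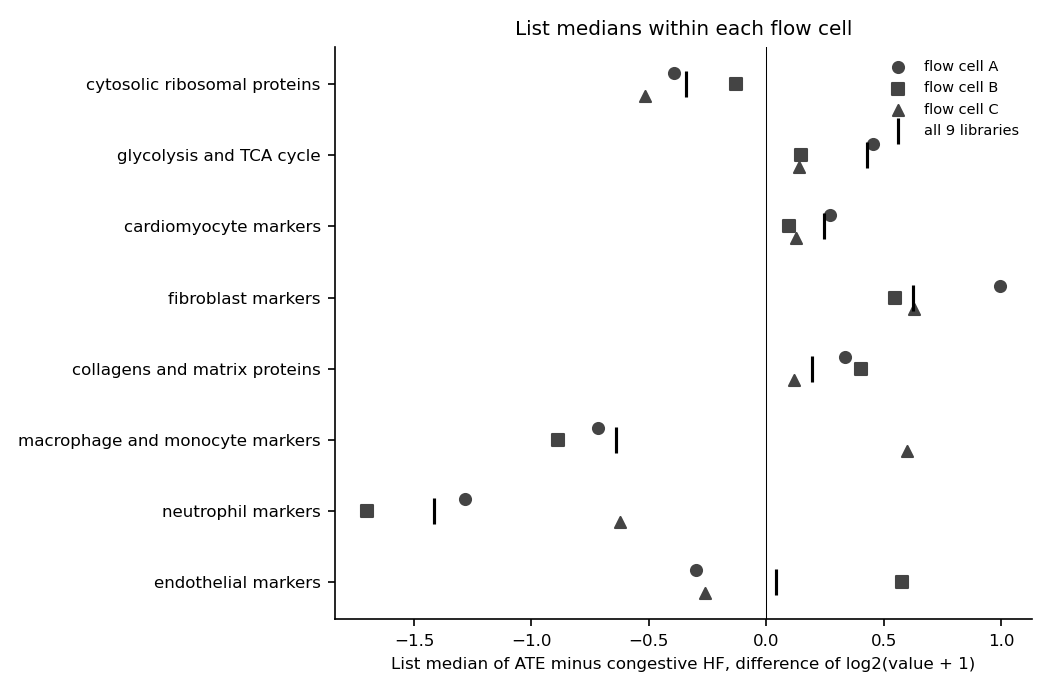
Median difference (ATE minus congestive HF, log2(value + 1), horizontal axis) of 8 gene lists within flow cell A (circle, 1 ATE against 3 HF libraries), B (square, 1 against 2) and C (triangle, 1 against 1), with the median over all 9 libraries as a vertical bar. Ribosomal proteins and neutrophil markers are below 0 and fibroblast markers above 0 on all 3 flow cells, whereas macrophage and endothelial markers change side.

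The natriuretic peptides and other genes of cardiac stress showed no shared direction, with 12 of 20 higher and a median of 0.17. NPPA, the atrial natriuretic peptide, which the ventricle re-expresses under load, was 218 to 3717 in HF (median 1008) and 465, 818 and 119 in cats 23, 10 and 38. All 3 ATE values lay below the HF median, but cats 15 and 30 with HF were lower than cats 23 and 10, and the difference was -1.4 ± 0.84 (exact permutation p = 0.262). NPPB, the B-type peptide used as a plasma marker of heart disease in cats, was 319.97 to 6318 in HF (median 2611) and 4032, 1784 and 1072 in ATE, a difference of 0.13 ± 0.78 (exact permutation p = 0.929). Its highest and its lowest value were both in HF.

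NPR3, the clearance receptor of these peptides and a marker of endocardium, was the member with the smallest p. With 10 or more reads in 2 HF and 2 ATE libraries, it met the read filter only with the ATE libraries. It was 0.788 to 31.5 in HF (median 2.4) and 99.4, 4.51 and 20.6 in ATE, a difference of 2.18 ± 0.98 (exact permutation p = 0.119) that was -0.59 on flow cell C. MYH6, the alpha myosin heavy chain, was 19.8 to 393 in HF and 146, 355 and 143 in ATE, a difference of 1.24 ± 0.77 (exact permutation p = 0.31). MYH7, the beta chain, listed under a locus identifier and named through its gene ID, differed by 0.25 ± 0.48 (exact permutation p = 0.571). The 2 myosin genes are near-identical over long stretches, so the split of reads between them is uncertain.

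Neutrophil and macrophage markers stood lower in ATE on average, and their spread was wide in HF. Of 8 neutrophil markers tested out of 20 listed, 7 had a lower mean and the median was -1.41, the lowest of all lists. With every gene that had a read, and so without the read filter, the list median was -0.72. S100A9 and S100A8 encode the subunits of calprotectin, abundant in neutrophils and monocytes. Both had 10 or more reads in 6 HF and 2 ATE libraries, so they met the read filter through the HF libraries. S100A9 was 15.7 to 637 in HF (median 62.6) and 18.8, 31.6 and 3.68 in cats 23, 10 and 38, a difference of -2.39 ± 0.93 (exact permutation p = 0.119). S100A8 was 14.3 to 447 in HF and 17.5, 30.4 and 5.15 in ATE, a difference of -1.95 ± 0.87 (exact permutation p = 0.167). Cats 35 and 11 held the highest HF values of both genes, and cat 37 with HF lay as low as the ATE libraries. Cat 30 with HF was also below cat 10 for both genes, at 28.6 for S100A9 and 26.9 for S100A8. For S100A8 so was cat 31, at 27.9. MPO, a defining marker of neutrophil granules, had no read in any of the 9 libraries, and the whole list took 0.00668% to 0.0114% of the reads in ATE and 0.00575% to 0.162% in HF.

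Macrophage and monocyte markers had 20 of 26 tested members lower in ATE and a median of -0.64, which was -0.35 without cat 35. On all 3 flow cells, however, only 2 were lower (12.7% of all genes) and 2 were higher (13.4% of all genes). At an unadjusted p under 0.05, 1 was lower (2.08% of all genes). MRC1, the mannose receptor of resident macrophages, was 12.9 to 72.5 in HF (median 36.7) and 8.06, 6.76 and 19.9 in ATE, a difference of -1.58 ± 0.52 (exact permutation p = 0.0714). Only 1 ATE library had 10 or more reads of MRC1, so it met the read filter through the HF libraries. CD163, a scavenger receptor of the same cells, was 12.9 to 388 in HF and 40.3, 27.1 and 33.1 in ATE, a difference of -0.82 ± 0.83 (exact permutation p = 0.476). The list level in HF ran from -2.01 in cat 15 to 0.79 in cat 35, a range that contained all 3 ATE levels (-0.89, -1.48 and -0.77). Within flow cell C the list median had the opposite sign, 0.597.

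The lists of inflammatory cytokines and adhesion molecules (15 of 20 lower, median -0.22) and of complement (9 of 13 lower, median -0.19) leaned the same way, the latter with a median of 0.63 within flow cell C. OSMR, the receptor subunit for oncostatin M, was 123 to 394 in HF and 122, 160.1 and 78 in ATE, a difference of -0.87 ± 0.34 (exact permutation p = 0.0476). SOCS3, a feedback inhibitor of cytokine signalling, was 8.58 to 78.2 in HF and 33.6, 10.1 and 6.62 in ATE. The complement median changed sign without cat 35, to 0.06, and this cat had a CLU (clusterin) value of 2156, against 114 to 284 in the other HF libraries. HMOX1, the haem-degrading enzyme of the stress response, was 4.29 to 46.5 in HF and 10.7, 6.76 and 0 in ATE, a difference of -2.39 ± 0.78 (exact permutation p = 0.0714), with cat 37 as low as the ATE libraries. The ATE values of HMOX1 came from 8, 6 and 0 reads, so it met the read filter through the HF libraries alone. SOCS3 had 1 ATE library with 10 or more reads and also met the filter only with the HF libraries.

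Interferon response and antigen presentation genes went the other way, with 17 of 20 tested members higher in ATE and a median of 0.43, although only 2 were higher on all 3 flow cells (13.4% of all genes) and 2 lower (12.7%), and the median within flow cell C was -0.73. IFIH1, the cytosolic sensor MDA5 of double-stranded RNA, was 2.36 to 17.2 in HF (median 6.93) and 22.8, 19.2 and 20.6 in ATE, a difference of 1.6 ± 0.55. TAPBP, tapasin, which loads peptides on class I molecules, was 0.798 to 11.4 in HF and 14.8, 21.4 and 19.9 in ATE, a difference of 1.73 ± 0.599. Neither overlapped between the groups (exact permutation p = 0.0238 for each), as for 1.0% of all genes, and both met the read filter only with the ATE libraries. HERC6, an interferon-induced gene, had the opposite direction and the smallest limma p of the list, at 5.89 to 26 in HF and 1.34, 2.25 and 8.09 in ATE, a difference of -1.87 ± 0.55 (exact permutation p = 0.0476). With 1 ATE library at 10 or more reads, HERC6 met the read filter only with the HF libraries. ISG15, a ubiquitin-like product of interferon signalling picked out after its values were seen, was high in 1 library of either group, at 245 in cat 37 and 239 in cat 10.

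Of the genes by which the vessel wall starts or limits clotting, 9 of 23 tested were higher in ATE, with a median of -0.24. Within flow cells A, B and C the median was -0.18, 0.41 and 0.17, so the direction was the opposite on flow cells B and C. ENTPD1 (CD39), which breaks down the platelet agonist ADP, was the member with the smallest p. Its groups did not overlap, as for 1.0% of all genes, and it had few reads (3 to 13 in any library). ENTPD1 met the read filter with 1 HF library and 2 ATE libraries. It was 2.39 to 6.27 in HF (median 4.25) and 14.8, 9.02 and 9.56 in cats 23, 10 and 38, a difference of 1.16 ± 0.49 (exact permutation p = 0.0238). PTGS1, the constitutive cyclooxygenase, was 5.51 to 34.5 in HF and 26.9, 19.2 and 22.8 in ATE, where only cat 30 with HF reached the ATE values.

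F3, tissue factor, the trigger of coagulation, had a lower mean in ATE. It was 5.72 to 169 in HF (median 37.9) and 17.5, 28.2 and 3.68 in ATE, a difference of -1.52 ± 0.82 (exact permutation p = 0.19), with cat 37 in HF close to cat 38. VWF, the platelet-binding von Willebrand factor of endothelium, was 224 to 923 in HF and 359.97, 455 and 288 in ATE, a difference of -0.24 ± 0.44 (exact permutation p = 0.643). THBD, thrombomodulin, the endothelial brake on thrombin, differed by 0.31 ± 0.51 (exact permutation p = 0.667). For VWF and THBD a difference was not detectable with these libraries, which does not show that there was none. Of the platelet genes only 1 of 9 listed, GP1BB, had enough reads to be tested, and it was 1.6 to 15.7 in HF and 13.4, 11.3 and 31.6 in ATE. GP1BB met the read filter with 2 HF libraries and 3 ATE libraries.

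Endothelial markers did not lean to one side, with 14 of 25 higher, a median of 0.04 and medians of -0.301, 0.58 and -0.26 on flow cells A, B and C. PECAM1, the junctional adhesion molecule CD31, differed by -0.24 ± 0.37 (exact permutation p = 0.595). Smooth muscle and pericyte markers had 6 of 13 higher and a median of -0.22. RGS5, a regulator of G protein signalling typical of pericytes, was 25.1 to 60.1 in HF and 25.5, 30.4 and 12.5 in ATE, a difference of -1.01 ± 0.36 (exact permutation p = 0.0714), and it was lower on all 3 flow cells.

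Markers of other cells that a ventricular sample could hold were sparse. Of those listed, 2 of 23 T and NK cell markers, 1 of 13 B and plasma cell markers, 0 of 8 mast cell markers, 7 of 18 adipocyte markers, 4 of 17 Schwann cell and neuronal markers, 3 of 12 mesothelial markers and 1 of 13 erythroid genes had enough reads. The tested T and NK cell markers, CD247 and IL7R, differed by 1.05 ± 0.85 and 0.07 ± 0.80. The B and plasma cell marker, JCHAIN, differed by 0.52 ± 0.48, and the groups overlapped in each of these genes. CD247 was lower in ATE on flow cells B and C, at -0.73 and -0.34. IL7R kept its direction in only 10 of 19 alternatives. The erythroid gene differed by -0.27. CD3D, GZMB and PRF1 of T and NK cells, MS4A1 and PAX5 of B cells and HBA1 and SLC4A1 of red cells had no read in any of the 9 libraries. Skeletal muscle genes had 3 of 6 higher and a median of -0.14. Among them MYL1, a fast myosin light chain, was 2379 in cat 31 and 513 in cat 11 with HF and 5.88 to 137 in ATE.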

How the data were processed

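Per the labels and the study's methods, the authors sequenced native RNA of left ventricular free wall, 4 libraries on each of 3 Nanopore flow cells, used Guppy for base calling, removed reads of low quality, aligned the others with Minimap2 to the cat genome felCat9 and counted reads per gene with featureCounts. The deposited table holds a signal per gene and library. The values showed it to be read counts divided by 1 size factor per library, since 100% of the values were integer multiples of what 1 read was worth (tolerance 1e-06), and these whole reads were recovered. The size factors equalled median-of-ratios factors to a relative 2.89e-15. Of 30785 genes listed, 17701 had a read in the 9 libraries and 8588 had at least 10 reads in at least 3 of them. Over the tested genes the median read number was 28, and 38.2% of them had a median under 20. No column was left without a sample.

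Groups were compared with limma 3.58.1 (R 4.3.3, trend) on log2(value + 1), with no covariate, two-sided, and Benjamini-Hochberg adjustment over all 8588 genes. On this scale fold changes of genes with low values are understated. Each cat gave 1 library, so p-values measure the spread between cats, and single genes also have an exact permutation test over the 84 splits of 6 against 3. Alternatives used edgeR 4.0.16 and DESeq2 1.42.0 on the recovered reads, flow cell as a covariate, other scalings, filters and pseudocounts, and each cat left out. The scripts were tested on simulated data. Lists and plots used Python 3.11.15 with numpy 2.4.6, pandas 2.3.3 and matplotlib 3.10.9.

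The groups, members and gene lists were chosen with earlier results of these data known. Named genes were up to 8 in each direction with the smallest limma p among those with a gene symbol, a mean value of at least 10 and no overlap, up to 3 members of each list with the smallest p, and a fixed set of stress, matrix and vessel genes, of which 1 is not reported here; others are named as chosen after their values were seen. Of 1257 list names, 1172 were matched as listed, 23 by RefSeq gene ID (assembly F.catus_Fca126_mat1.0, used for names only), 3 under older symbols, and 59 were unmatched. The mitochondrial share of reads was not computed, as all 13 mitochondrial genes are listed at 0. RNA quality values were not used here.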

Additional observations from a re-analysis of the deposited data

Results flagged for a closer look

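In the 6 HF libraries, 181 measures were searched for a single library whose distance to its nearest neighbour was large against the range of the group. There were 10 such measures. Chance gives about 1 in 20, so this number is close to what chance alone would give. With 3 ATE libraries the same search was not made. All gene values here are log2(value + 1).

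Cat 37 stood apart for APOA1, at 8.69 against 4.31 to 5.73 in the other HF libraries, for IRX5, a cardiac transcription factor, at 4.39 against 2.96 to 3.29, and for HMOX1, at 2.40 against 4.46 to 5.57. Cat 15 stood apart for PDGFRB, the platelet-derived growth factor receptor of mural cells, at 2.35 against 4.01 to 4.67, for the macrophage marker FOLR2, at 0 against 2.60 to 3.76, and for the level of the fibroblast markers, at -0.69 against 0.32 to 0.78. Cat 35 stood apart for CLU, at 11.07 against 6.85 to 8.15, and for the level of the complement genes, at 1.74 against -0.52 to 0.16. Cat 30 stood apart for the cyclin CCND3, at 3.24 against 4.06 to 4.39, and for the level of the proteasome subunits, at 1.77 against 2.09 to 2.27.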

How the results depend on the processing

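With 3 ATE libraries, 1 cat could move many values. Genes with an adjusted p under 0.05 numbered 1 with DESeq2, 1 with edgeR and flow cell, and 0 to 1 with a cat left out (1 without cat 37, APOA1). Genes with an unadjusted p under 0.05 numbered 374, against 185 without scaling (which shifted the median of all genes by -0.21), 800 with every gene that had a read, 249 with at least 20 reads in 3 libraries, 184 with at least 10 reads in all 9, and 238 (without cat 38) to 564 (without cat 15) with a cat left out. The ATE minus HF difference with a cat left out was -451 to 28 in genes with a read and -0.71 to 1.39 percentage points in the share of the 10 most abundant genes, and -429149 to -7925 in reads.

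Of 137 named genes, 130 kept their direction in every alternative run and 7 did not. Most were named for a small p in these same libraries, which favours a kept direction. The 16 genes chosen for no overlap necessarily kept theirs with a cat left out. Without scaling, IL7R was -0.20 and NPPB -0.093. With edgeR they were -0.50 and -0.28, and with DESeq2 -0.48 and -0.26. With edgeR and flow cell, IL7R was -0.32, MYH7 -0.017 and COL1A1 0.081. With limma and flow cell, COL1A1 was 0.30. With a pseudocount of 2, IL7R was -0.027. With a cat left out, the ranges were -0.40 (without cat 15) to 0.32 (without cat 35) for IL7R, -0.80 (without cat 23) to 0.40 (without cat 10) for COL1A1, -0.39 (without cat 23) to 0.57 (without cat 38) for NPPB, -0.68 (without cat 23) to 1.54 (without cat 10) for POSTN, -0.46 (without cat 23) to 1.22 (without cat 10) for COL3A1, -0.032 (without cat 10) to 0.66 (without cat 23) for MYH7 and -0.20 (without cat 38) to 1.24 (without cat 10) for EFEMP1. The cause of these changes was not tested. No paired analysis was possible because no cat was in both groups.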

Other observations

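The libraries of cat 36, which died of a non-cardiac cause, and of those labelled 29 and 22 were in no comparison, and their values are given in that order. They held 1756702, 1228079 and 880915 reads. KERA was 0, 2.22 and 14.9, and CD38 16, 16.6 and 25.7. ABRA was 227, 354 and 955, APOA1 25.8, 82 and 482, and COL14A1 2.67, 17.7 and 64.8. Of the genes lower in ATE, PAK1 was 4.45, 1.11 and 4.05, ITIH4 15.1, 65.4 and 6.75, and SERPINA1 16, 3.33 and 0. The list level was 3.96, 4.12 and 3.69 for cytosolic ribosomal proteins, 0.06, 0.82 and 1.01 for fibroblast markers and -1.21, -1.04 and -2.92 for neutrophil markers.

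Other lists were as follows. Immediate early genes had 12 of 21 higher in ATE (median 0.05), hypoxia response genes 10 of 17 (0.08), heat shock proteins and co-chaperones 21 of 33 (0.09), endoplasmic reticulum stress genes 11 of 28 (-0.08), ubiquitin ligases and autophagy genes 25 of 38 (0.16) and genes of the nuclear envelope, lamina and pore 24 of 57 (-0.103). Adrenergic, renin-angiotensin, endothelin and nitric oxide genes had 6 of 13 higher (-0.298, and 0.13 without cat 10), endocardial and lymphatic markers 5 of 7 (0.25) and adipocyte markers 5 of 7 (0.33).

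Of 23 cardiac transcription factors tested, 13 were higher (0.13), and 2 were lower without overlap, against 1.19% of all genes. MEF2D, a transcription factor of muscle genes, was 9.53 to 30.04 in HF and 5.37, 7.89 and 8.09 in cats 23, 10 and 38, a difference of -1.22 ± 0.43. IRX5 was 6.81 to 20.03 in HF and 5.37, 3.38 and 2.94 in ATE, a difference of -1.09 ± 0.48. Cell cycle genes had 5 of 12 higher (-0.23), with the D-type cyclins in both directions, CCND2 at 1.7 ± 0.65 and CCND3 at -1.06 ± 0.39. The limma adjusted p of these 4 genes was 0.956 or more. MEF2D, IRX5 and CCND3 had 1, 0 and 0 ATE libraries with 10 or more reads, so they met the read filter through the HF libraries.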
